A study of Homo sapiens with 8 samples.

Results

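The miR-30 family was followed in HCT116, a human colorectal cancer cell line, after contact with enterotoxigenic Bacteroides fragilis (ETBF), a member of the gut flora whose secreted metalloprotease acts on epithelial cells. The members were the rows named for the guide (5p) and passenger (3p) arms of miR-30a to miR-30e: 10 names of the 2575 in the count files. The 5p names are hsa-miR-30a-5p, hsa-miR-30b-5p, hsa-miR-30c-5p, hsa-miR-30d-5p and hsa-miR-30e-5p, and the 3p names are hsa-miR-30a-3p, hsa-miR-30b-3p, hsa-miR-30c-2-3p, hsa-miR-30d-3p and hsa-miR-30e-3p. They are written without the species prefix from here on. Whole-cell total RNA was sequenced for miRNAs in 8 libraries. For 4 of them HCT116 was kept together with ETBF for 6 hours at a multiplicity of infection of 500. The other 4, titled untreated, were controls given bacterial medium that held no ETBF. All cells were at passages 16 to 19, adherent, and of the same line. The labels do not say that replicates were separate cultures, so p-values measure the spread between these libraries, which may be technical. In RNA from a whole culture, fewer cells and less RNA per cell cannot be told apart.

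A miRNA hairpin is cut to a duplex of 2 arms. The guide is the arm that is mostly kept by Argonaute and directs it to messenger RNAs through its seed, bases 2 to 8, and the passenger is the arm that is mostly discarded. In the miR-30 family the 5p arm is usually the guide, the 5p arms of all paralogs share a seed and so overlap in their targets, and the 3p arms fall into groups with other seeds. The family is known for holding epithelial cells in their differentiated state, for repressing the EMT factor SNAI1, and for restraining autophagy through BECN1.

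Sequences were taken from RefSeq for 6 of the 10 members, on GRCh38.p14. The 5p arms are shown because they share the seed, in capitals, and differ further along:
miR-30a-5p: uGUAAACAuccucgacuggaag
miR-30e-5p: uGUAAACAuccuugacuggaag
miR-30c-5p: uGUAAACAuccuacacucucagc
The miR-30a and miR-30e guides differ at 1 of 22 bases, C13U, counted from the 5′ end with the miR-30a base given ahead of the position. The miR-30c guide differs from each of them at 5 of the 22 bases compared. No other tested miRNA with a sequence in that table has the seed GUAAACA.

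The 3p arms are shown because they carry 2 other seeds, again in capitals:
miR-30a-3p: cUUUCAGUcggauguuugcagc
miR-30e-3p: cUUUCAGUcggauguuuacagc
miR-30c-2-3p: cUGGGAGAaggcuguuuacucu
miR-30c-1-3p: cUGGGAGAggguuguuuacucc
The passengers of miR-30a and miR-30e differ by G18A alone. The name miR-30c-1-3p is not a member and is included as the passenger of the other miR-30c hairpin. Paralogs that differ at so few bases can share reads, so their levels are uncertain to that extent.

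The hairpins of miR-30e (5p arm at chr1:40754371-40754392, plus strand) and miR-30c-1 (5p arm at chr1:40757300-40757322, plus strand) lie 2837 bases apart in introns of NFYC, a subunit of the CCAAT-binding factor NF-Y, on its strand (GENCODE 29). The hairpins of miR-30a (5p arm at chr6:71403595-71403616, minus strand) and miR-30c-2 (5p arm at chr6:71377003-71377025, minus strand) lie 26519 bases apart in introns of the long noncoding RNA LINC00472. Introns of another long noncoding RNA on the same strand, AL136164.2, hold these hairpins as well. The miR-30c guide is made from both loci, and its count cannot be divided between them. The hairpins of miR-30b and miR-30d neighbour each other on another chromosome, with no other gene of the RefSeq table lying wholly between them.

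The 4 ETBF libraries held 2591655 to 4706156 counts and the 4 control libraries 5243400 to 6522542, so depth moved with the treatment. Colon epithelial miRNAs were present, led by miR-200c-3p at 10956 CPM in ETBF cells and 13636 CPM in control cells. Over all 480 tested miRNAs, 14.6% were called lower and 19.8% higher in ETBF cells (edgeR, adjusted p under 0.05). Of the 5 epithelial names fixed, 3 fell and 2 did not pass, with sums of 10952 to 12640 CPM in ETBF cells and 13993 to 15252 CPM in control cells. Of 8 entries that overlap or resemble ribosomal RNA or repeats, 5 were tested and all 5 rose, with summed levels of 195 to 610.2 CPM in ETBF cells and 46.5 to 175 CPM in control cells. MiR-4454 of that list was at 0 throughout. Of 7 blood markers 4 were tested and 1, miR-451a, rose, and the untested miR-144-3p, miR-223-3p and miR-150-5p averaged 0.669, 0.118 and 0.182 CPM in ETBF cells and 0.355, 0.0497 and 0 CPM in control cells. The blood sums were 71.2 to 105 CPM in ETBF cells and 58.3 to 68.0 CPM in control cells. Of the 6 stromal and muscle names 5 were in the files and 3 were tested, and 0 were called higher or lower, with sums of 386 to 427 CPM in ETBF cells and 413 to 426 CPM in control cells. What part these differences have in the miR-30 results was not tested, except that the fits were repeated at equal depth.

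MiR-30 guides made up 1.84% ± 0.0348 of all counts in ETBF cells and 2.37% ± 0.102 in control cells (SD, n = 4 each). MiR-30d-5p, the most abundant member, fell by about a factor of 1.54, while its own passenger miR-30d-3p rose 1.47-fold. MiR-30a-5p rose 1.25-fold. MiR-30c-5p fell by a factor of 1.12, the smallest of the 4 changes called. The guides of miR-30b and miR-30e and the passengers of miR-30a, miR-30b and miR-30e did not pass. Of 9 members tested, 2 rose, 2 fell and 5 did not pass, against a background of 19.8% of the 480 tested miRNAs called higher and 14.6% called lower (edgeR, adjusted over the 480). Of all 480, 34.4% were called, so the 4 of 9 members are not far from the background. The groups did not overlap in CPM for 4 members, 2 with ETBF above and 2 with ETBF below, where 33.8% of all tested miRNAs had no overlap, 18.1% above and 15.6% below. With upper-quartile scaling the counts over all tested miRNAs were 71 higher and 89 lower, against 95 and 70 in the fit reported. The median log2 fold change was 0.04 over the 9 members and 0.01 over all 480.

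**Figure D1:**
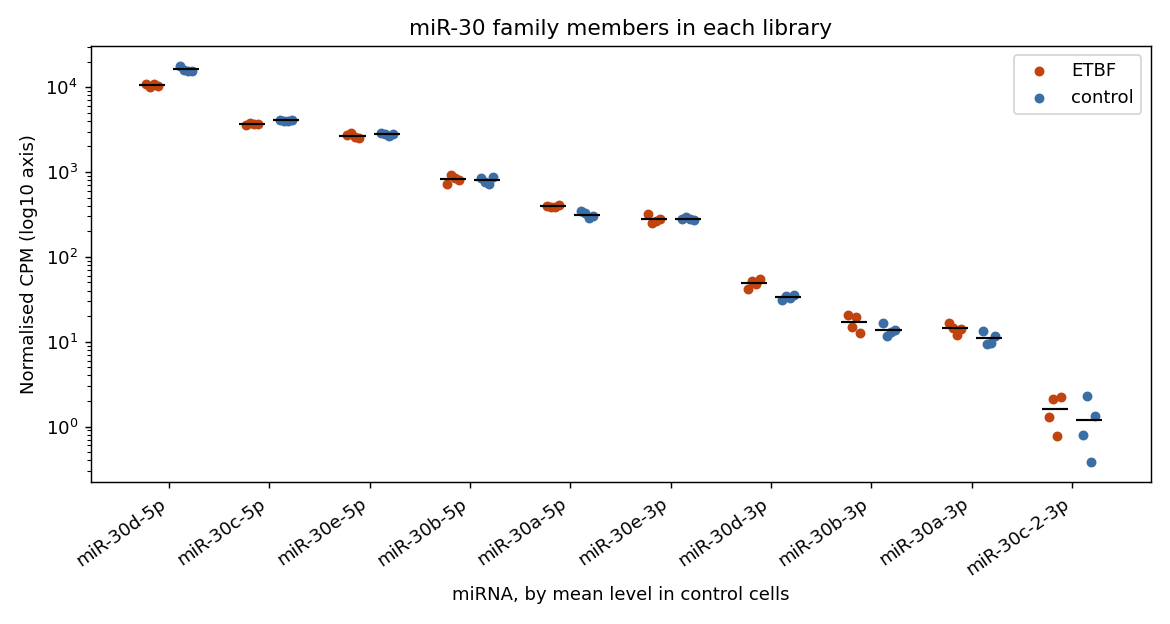
Each dot is 1 library and each black line a group mean, on a log10 axis of normalised CPM, with the ETBF libraries left of the controls. MiR-30d-5p stands at 10044 to 10976 CPM in ETBF cells and 15320 to 17885 CPM in control cells, and the members span from over 10000 CPM to about 1 CPM.

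Among the guides, miR-30d-5p, which is often amplified or raised in epithelial tumours, had 10976, 10044, 10762 and 10401 CPM in ETBF replicates 1 to 4, and 17885, 15926, 15702 and 15320 CPM in control replicates 1 to 4. CPM are counts relative to the library total, scaled with TMM factors, which correct that total for a few miRNAs that take up many reads. All ETBF libraries were below all controls, and the libraries of each group lay within narrow ranges, with a coefficient of variation of 3.89% in ETBF cells and 7.07% in control cells. The means were 10546 ± 409.9 CPM in ETBF cells and 16208 ± 1146 CPM in control cells (SD, n = 4 each), a log2 fold change of -0.62 (SE 0.07, edgeR adjusted p = 3.3e-06). By mean level over all names it ranked 12 in ETBF cells and 10 in control cells. With all libraries thinned to the depth of the smallest, its log2 fold change was -0.62 (edgeR adjusted p = 1.6e-06).

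MiR-30c-5p, the next guide by level as counted and the product of 2 hairpins, had 3550, 3733, 3654 and 3644 CPM in ETBF cells and 4102, 4011, 4033 and 4151 CPM in control cells. The groups did not overlap, but the difference was small, with a log2 fold change of -0.16 (SE 0.06, edgeR adjusted p = 0.0437). The call did not hold under 13 of 19 alternatives. These included the fits without ETBF replicate 1, 3 or 4 (adjusted p = 0.0743, 0.0832 and 0.0901) and without control replicate 1, 2, 3 or 4 (adjusted p = 0.071, 0.0555, 0.0901 and 0.0982). At equal depth the log2 fold change was -0.16 (adjusted p = 0.0555), and with library totals as the only scaling it was -0.11 (adjusted p = 0.257). Over all 19 alternatives it lay between -0.24 and -0.11.

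MiR-30e-5p, from the same host gene NFYC as the hairpin miR-30c-1, had 2699, 2881, 2591 and 2539 CPM in ETBF cells and 2871, 2841, 2688 and 2834 CPM in control cells. The groups overlapped (log2 fold change -0.07, SE 0.06, edgeR adjusted p = 0.455). The fold change was -0.13 without ETBF replicate 2, -0.15 with upper-quartile scaling and -0.01 with library totals, and did not pass in any of these. MiR-30b-5p, whose hairpin neighbours that of miR-30d, had 721, 919, 844 and 814 CPM in ETBF cells and 849, 768, 728 and 866 CPM in control cells. These also overlapped, with a log2 fold change of 0.04 (SE 0.09, edgeR adjusted p = 0.763) whose sign turned under upper-quartile scaling, in the unfiltered fit, and when ETBF replicate 2 or control replicate 3 was left out.

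MiR-30a-5p, a guide studied as a repressor of SNAI1 and BECN1 and the least abundant of the 5, had 403, 385, 383 and 408 CPM in ETBF cells and 344, 329, 284 and 306 CPM in control cells. All ETBF libraries were above all controls. The means were 395 ± 12.6 CPM in ETBF cells and 316 ± 26.4 CPM in control cells (SD, n = 4 each), a log2 fold change of 0.32 (SE 0.08, edgeR adjusted p = 0.00391). This call was kept in all 19 alternatives, with adjusted p of up to 0.0386.

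In every hairpin of the family the passenger was rarer than its guide. MiR-30d-3p, the passenger of miR-30d, had 42.1, 51.4, 47.8 and 55.0 CPM in ETBF cells and 30.6, 34.9, 32.9 and 35.5 CPM in control cells, without overlap. The values rested on 147 to 219 counts in ETBF cells and 154 to 238 counts in control cells. Its log2 fold change was 0.54 (SE 0.11, edgeR adjusted p = 0.00087), and 0.62 at equal depth (adjusted p = 0.000515).

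MiR-30e-3p was the most abundant passenger, with 318, 248, 268 and 276 CPM in ETBF cells and 279, 297, 279 and 271 CPM in control cells, and the groups overlapped (log2 fold change -0.02, SE 0.08, edgeR adjusted p = 0.863). The sign turned with library totals as the only scaling and without ETBF replicate 2. MiR-30b-3p lay between 12.7 and 20.4 CPM in ETBF cells and between 11.6 and 16.7 CPM in control cells (log2 fold change 0.32, SE 0.17, edgeR adjusted p = 0.154), with 0.20 both without ETBF replicate 1 and at equal depth. MiR-30a-3p lay between 12.1 and 16.8 CPM in ETBF cells and between 9.51 and 13.3 CPM in control cells (0.38, SE 0.16, edgeR adjusted p = 0.0808), and passed without control replicate 1 (0.47, adjusted p = 0.0391).

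MiR-30c-2-3p was too rare for the filtered fit. It had 6, 9, 3 and 6 counts in ETBF cells and 4, 13, 2 and 9 counts in control cells, where the upper limit for an unseen miRNA, 3 counts, corresponds to 0.447 to 1.12 CPM depending on the library, for counting error only. In the unfiltered fit of 1496 miRNAs its log2 fold change was 0.31 (SE 0.50, edgeR adjusted p = 0.769). The passenger of the other miR-30c hairpin, miR-30c-1-3p, had 40, 48, 33 and 29 counts in ETBF cells and 17, 42, 42 and 55 in control cells. In CPM its ETBF libraries lay above its controls (log2 fold change 0.51, SE 0.24, edgeR adjusted p = 0.11), and without control replicate 1 the log2 fold change was 0.31. It passed only with the GC trend removed and the replicate number as a block (0.56, adjusted p = 0.0405).

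**Figure D2:**
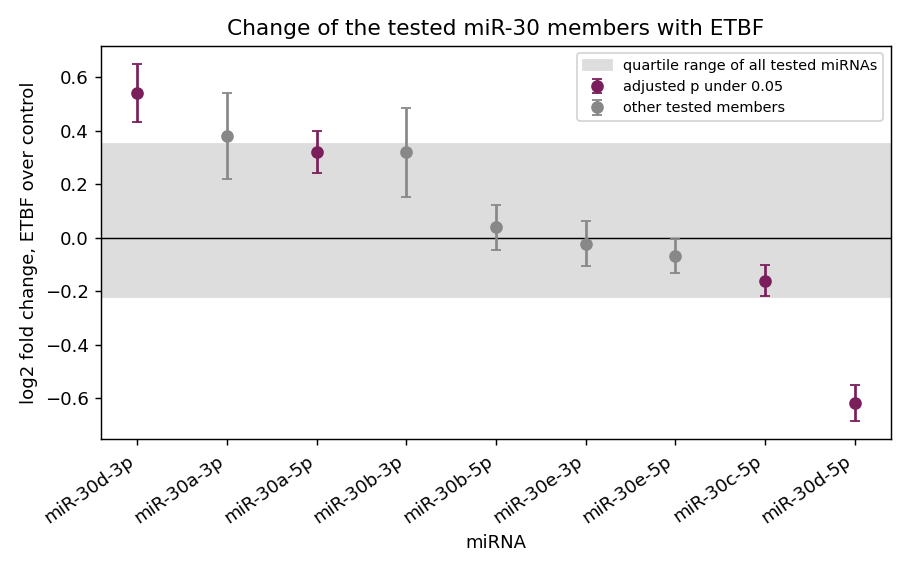
Points are log2 fold changes of the 9 tested members, ETBF over control, with bars of 1 approximate SE, and the grey band spans the lower to the upper quartile of all 480 tested miRNAs. MiR-30d-5p at -0.62 lies below the band, which ends at -0.22. MiR-30d-3p at 0.54 and miR-30a-3p, not called, at 0.38 lie above its upper end of 0.35.

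The order of mean levels within the family was the same in both groups. In ETBF cells it ran from miR-30d-5p through miR-30c-5p, miR-30e-5p, miR-30b-5p, miR-30a-5p, miR-30e-3p, miR-30d-3p, miR-30b-3p and miR-30a-3p to miR-30c-2-3p. The ranges of neighbours in that order did not overlap except for miR-30b-3p and miR-30a-3p. In control cells the ranges of miR-30a-5p and miR-30e-3p overlapped as well. MiR-30d-5p stood 2.89-fold above miR-30c-5p in ETBF cells and 3.98-fold in control cells. MiR-30c-5p in turn stood 1.36-fold above miR-30e-5p in ETBF cells and 1.45-fold in control cells. With its counts halved, as if every read had been counted at both hairpins, miR-30c-5p would stand below miR-30e-5p. Small RNA libraries recover sequences with unequal efficiency, so these are orders of counts and not of molecules.

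The make-up of the shared-seed pool differed between the groups. MiR-30d-5p supplied 59.8%, 55.9%, 59.0% and 58.4% of the summed guide counts in ETBF replicates 1 to 4, and 68.7%, 66.7%, 67.0% and 65.3% in control replicates 1 to 4. Its mean share was 58.3% ± 1.68 in ETBF cells and 66.9% ± 1.39 in control cells, a difference of -8.61 percentage points (SD, n = 4 each, two-sided exact permutation p = 0.0286, the smallest that 70 arrangements allow). The libraries of the groups did not overlap for this or any of the other 4 shares.

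MiR-30c-5p supplied 20.2% ± 0.619 in ETBF cells and 16.9% ± 0.824 in control cells. MiR-30e-5p supplied 14.8% ± 0.854 in ETBF and 11.6% ± 0.470 in control cells. The share of miR-30b-5p was 4.56% ± 0.487 in ETBF and 3.32% ± 0.256 in control cells, and that of miR-30a-5p was 2.18% ± 0.0820 in ETBF and 1.30% ± 0.0687 in control cells (SD, n = 4 each). Each had the same exact permutation p of 0.0286, which is also the value adjusted over the 5 shares. With the counts of miR-30c-5p halved, as if every read had been counted at both hairpins, its share differed by 2.00 percentage points in place of 3.30. Shares add to 100%, so a smaller share of miR-30d-5p enlarges the others: miR-30c-5p took a larger share at a lower level. The summed guides were at 18088 ± 248 CPM in ETBF cells and 24209 ± 1244 CPM in control cells. Without miR-30d-5p the sums were 7542 ± 254 CPM in ETBF and 8001 ± 206 CPM in control cells, and the groups overlapped. The mean of miR-30d-5p was 5663 CPM lower in ETBF cells, and the mean guide sum 6122 CPM lower.

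Among the other 4 guides alone, miR-30a-5p made up 5.24% ± 0.304 in ETBF cells and 3.94% ± 0.272 in control cells, without overlap, and miR-30c-5p 48.4% ± 0.919 in ETBF and 50.9% ± 0.859 in control cells, also without overlap. MiR-30b-5p and miR-30e-5p overlapped between the groups on that basis.

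**Figure D3:**
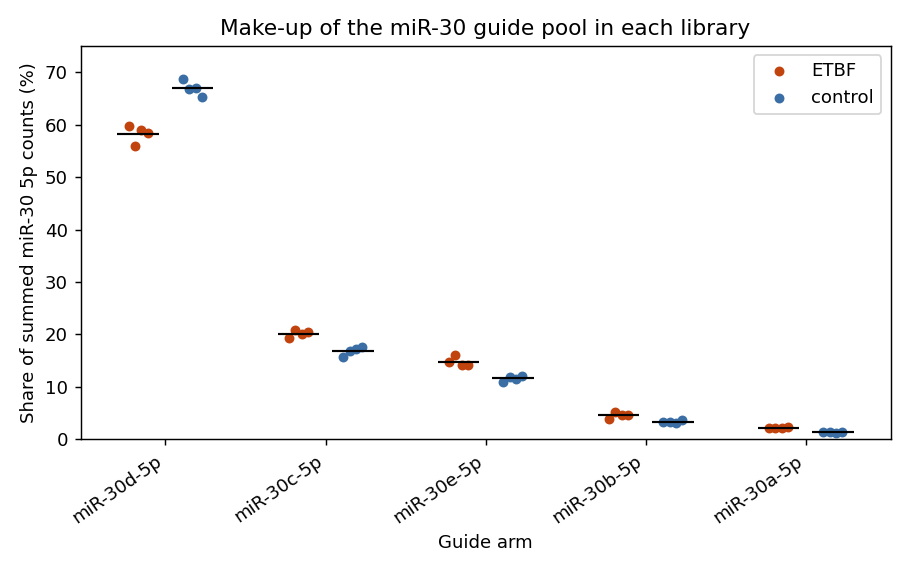
Each dot is the share of 1 guide in the summed miR-30 5p counts of 1 library, in percent, with ETBF left of control and black lines for group means. MiR-30d-5p stands at 55.9% to 59.8% in ETBF cells and 65.3% to 68.7% in control cells, and the other 4 guides stand higher in ETBF cells.

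Ratios between guides, which need no scaling, set the paralogs against each other. These contrasts were chosen after the values were seen, so their p-values, adjusted over 8, give no separate evidence. The count of miR-30d-5p was 15.2, 10.9, 12.8 and 12.8 times that of its neighbour miR-30b-5p in ETBF cells, and 21.1, 20.7, 21.6 and 17.7 times in control cells. On the log2 scale the difference of ETBF from control cells was -0.66 (exact permutation p = 0.0286, adjusted p = 0.0457). The ratio of miR-30d-5p to miR-30e-5p averaged 3.95 ± 0.312 in ETBF cells and 5.77 ± 0.354 in control cells (n = 4 each, log2 difference -0.55, exact permutation p = 0.0286, adjusted p = 0.0457). The near-identical miR-30e-5p and miR-30a-5p also parted, with ratios of 6.79 ± 0.519 in ETBF cells and 8.93 ± 0.527 in control cells (n = 4 each, log2 difference -0.40, exact permutation p = 0.0286, adjusted p = 0.0457). MiR-30c-5p to miR-30e-5p averaged 1.36 ± 0.0688 in ETBF cells and 1.45 ± 0.0393 in control cells and overlapped (n = 4 each, exact permutation p = 0.114, adjusted p = 0.131).

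The ratio of the 5p to the 3p arm of a hairpin asks whether guide and passenger moved together. For miR-30d it was 260.0, 195, 225 and 188 in ETBF cells and 582, 456, 476 and 431 in control cells. The highest ETBF library was below the lowest control. The log2 ratio was 7.75 ± 0.213 in ETBF cells and 8.92 ± 0.189 in control cells (SD, n = 4 each), a difference of -1.17 (SE 0.16, limma adjusted p = 0.000399 over 138 hairpins). In 36.2% of the 138 hairpins the arm ratio was called, and in 23.9% it was called lower, so miR-30d was 1 of 33 such hairpins. It kept its call in all 13 alternatives.

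The other hairpins of the family did not pass. For miR-30e the ratio was between 8.49 and 11.6 in ETBF cells and between 9.57 and 10.5 in control cells (log2 difference -0.04, SE 0.13, limma adjusted p = 0.836), and for miR-30a between 23.9 and 31.4 in ETBF cells and between 25.7 and 34.3 in control cells (-0.05, SE 0.15, limma adjusted p = 0.81). The signs of both turned when single libraries were left out. For miR-30b it was between 35.2 and 63.1 in ETBF cells and between 50.6 and 65.6 in control cells (-0.25, SE 0.21, limma adjusted p = 0.377), and the difference was -0.08 without ETBF replicate 1. For miR-30c-1 it was between 328 and 425 in ETBF cells and between 499 and 1179 in control cells, without overlap (-0.77, SE 0.28, limma adjusted p = 0.0545). Without control replicate 1, which had 17 counts of the passenger, the difference was -0.47 and passed (limma adjusted p = 0.0417), as it did without control replicate 4 (-0.88, adjusted p = 0.0498).

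**Figure D4:**
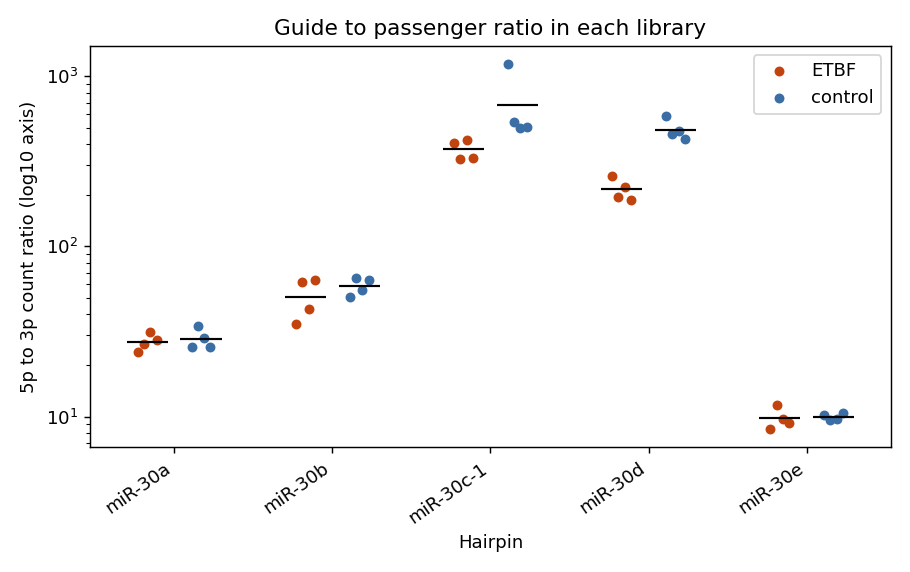
Each dot is the ratio of 5p to 3p counts of 1 hairpin in 1 library, on a log10 axis, with ETBF left of control and black lines for group means. The 5p count of miR-30c-1 is shared with miR-30c-2. MiR-30d is at 188 to 260.0 in ETBF cells and 431 to 582 in control cells, while miR-30a, miR-30b and miR-30e overlap between the groups, and 1 control library of miR-30c-1 stands apart at 1179.

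The arm ratio of miR-30d was also set against those of its paralogs, in contrasts chosen after miR-30d was seen to be called. Their p-values therefore give no separate evidence, and 0.0286 is the smallest exact permutation p that 70 arrangements allow. The change in the log2 arm ratio of miR-30d less that of miR-30a was -1.11, and less that of miR-30e it was -1.12 (exact permutation p = 0.0286 each, adjusted p = 0.0457 each). Against miR-30b the difference was -0.92 (exact permutation p = 0.0857, adjusted p = 0.114), and against miR-30c-1 it was -0.40 (exact permutation p = 0.143, adjusted p = 0.143), with overlap in both. Without control replicate 1 the difference from miR-30c-1 was -0.61. The changes in miR-30d were unequal in size: the guide was lower by 5663 CPM on average and the passenger higher by 15.6 CPM.

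Over all 138 hairpins, the less abundant arm gained on the more abundant one in 30.4% and lost in 5.8% (limma, adjusted p under 0.05), with a median shift of 0.25 on the log2 scale. In 11 hairpins, miR-30d among them, the more abundant arm was called lower and the less abundant arm higher, and in 1 the reverse. The 138 hairpins have 131 different more abundant arms, because an arm made from several hairpins is counted with each. They are therefore not all independent. Ordered from the largest gain of the less abundant arm to the largest loss, miR-30d ranked 16 of the 138.

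**Figure D5:**
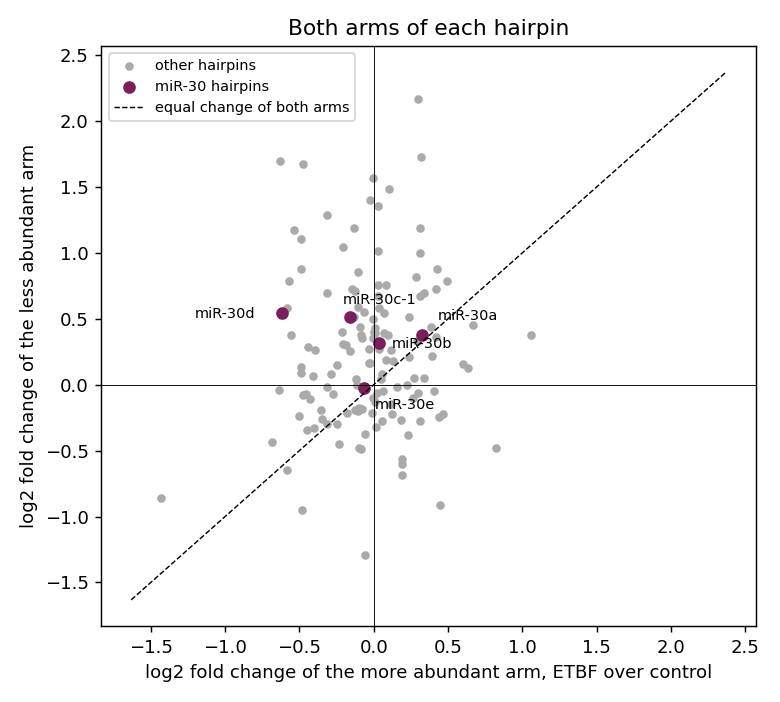
Each dot is 1 of 138 hairpins, placed by the log2 fold change (ETBF over control) of its more abundant arm on the horizontal axis and of its less abundant arm on the vertical axis, with the dashed line marking equal change. MiR-30d lies at -0.62 and 0.54, away from the line, whereas miR-30a at 0.32 and 0.38 and miR-30e at -0.07 and -0.02 lie near it.

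Base composition moved with the treatment over all miRNAs. Of the 96 tested with up to 40% GC, 22 rose and 6 fell, and of the 74 above 60% GC, 6 rose and 17 fell. The miR-30 sequences held are between these classes, with 40.9% GC in miR-30e-5p, 43.5% in miR-30c-5p and 45.5% in miR-30a-5p and miR-30e-3p. With the GC trend of each library removed, miR-30a-5p was at 0.32 (edgeR adjusted p = 0.00331) and miR-30c-5p at -0.16 (adjusted p = 0.076). MiR-30b and miR-30d were not in that fit.

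Other families with several near-identical guides also had members that differed in their calls. In the let-7 family, which represses RAS genes, 2 of 9 tested guides fell, 0 rose and 7 did not pass, with a median log2 fold change of -0.09, beside 14.6% called lower and 19.8% called higher among all 480. Of the miR-26 guides, made in introns of CTDSP genes, miR-26a-5p fell (-0.49, SE 0.06, edgeR adjusted p = 1.87e-05) and miR-26b-5p did not pass (0.06, SE 0.07, adjusted p = 0.54). Of the miR-29 guides, which repress collagen genes, miR-29b-3p (0.31, SE 0.08, adjusted p = 0.00479) and miR-29c-3p (0.67, SE 0.14, adjusted p = 0.00122) rose, and miR-29a-3p did not pass (0.07, SE 0.06, adjusted p = 0.423). These families were not tested against miR-30.

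The tested miRNAs whose log2 CPM ran most like that of the summed miR-30 guides over the 8 libraries were miR-139-5p (Pearson r = 0.995), miR-532-5p (0.990), miR-1180-3p (0.979), miR-26a-5p (0.973) and miR-375 (0.970). These values describe 8 libraries that share the same split into ETBF and control and the same scaling factors. Since the guide sum was lower in ETBF cells without overlap, the choice by likeness to it fixed the direction of all 5, whose log2 fold changes were -0.49 for miR-139-5p, -0.64 for miR-532-5p, -0.36 for miR-1180-3p, -0.49 for miR-26a-5p and -0.56 for miR-375.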

How the data were processed

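The files deposited by the authors give unnormalised counts of reads for each mature miRNA, with a separate file for every library. The submitters' processing notes name Trimmomatic, FastQC, featureCounts and the build GRCh37.p5. Not given in the sources used here are the versions, the aligner, the miRNA annotation and the strand and multi-mapping settings. If reads with several matches were counted at each, names made from several hairpins would be raised. On this point, the paralog names miR-365a-3p and miR-365b-3p had the same means, 93.8 CPM in ETBF cells and 100.2 CPM in control cells. MiR-199a-3p averaged 149.9 CPM in ETBF cells and 160.3 CPM in control cells, and miR-199b-3p 74.9 and 80.2 CPM in that order. How many reads of miR-30c-5p were counted at both hairpins was not tested. Counts of miR-30c-5p were odd in 5 of 8 libraries, so in these not every read was counted at both of its hairpins. Odd counts cannot tell whether most reads were.

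Samples were grouped by title. All miRNAs were fitted in R 4.3.3 with edgeR 4.0.16 (quasi-likelihood F test, TMM, filterByExpr with a minimum count of 10, which left 480 miRNAs), two-sided, Benjamini-Hochberg adjusted over the 480, threshold 0.05. The SE is approximate, the fold change divided by the root of F. Arm ratios used limma 3.58.1 on log2 of counts plus 0.5, over 138 hairpins whose arms both passed the filter. Shares and ratios used exact permutation over 70 arrangements. Both models were tested on simulated data. Alternatives included DESeq2 1.42.0, limma-voom, other scalings, filters, equal depth, a GC correction (417 of 480 tested miRNAs had a sequence), a replicate block and leaving out each library.

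The named miRNAs are all 10 members, miR-30c-1-3p, any other tested miRNA with the 5p seed, and the 5 most like the guide sum. Members and lists were chosen with earlier results of these data known. Libraries of a group differed by more than sampling noise (chi-square over degrees of freedom, 22.5 to 139). Correlations gave no sign of pairing by replicate number, and the labels do not say whether the numbers mark shared cultures.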

Additional observations from a re-analysis of the deposited data

Results flagged for a closer look

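In control replicate 1, miR-30c-1-3p was at 3.38 CPM, from 17 counts, against 7.39 to 8.20 CPM in the other 3 controls, a gap of 0.833 of the group's range. The same low count put the ratio of the miR-30c 5p arm to this passenger at 1179 in that library, against 499 to 536 in the other controls. These were the only libraries to stand apart from their group in 42 sets of 4 values checked over the members, miR-30c-1-3p, the shares and the arm ratios, and chance flags about 1 in 20 such sets.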

How the results depend on the processing

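The calls of miR-30d-5p (log2 fold change -0.71 to -0.56) and miR-30d-3p (0.46 to 0.62) held in 17 of 17 alternatives, and that of miR-30a-5p (0.24 to 0.38) in 19 of 19. The number of members called higher was 2 and became 1 with the GC trend removed, with or without the replicate block, and 2 to 3 when single libraries were left out. The number called lower was 2, became 1 with library totals, without a filter, at equal depth and with the replicate block, 0 with the GC trend removed with or without the block, and 1 to 2 when single libraries were left out. The GC fits held only the 5 tested members with a sequence, so neither arm of miR-30d was in them. MiR-30c-5p was in them and did not pass (edgeR adjusted p = 0.076, and 0.123 with the block). The losses with library totals, without a filter, at equal depth and with the replicate block were all of miR-30c-5p (edgeR adjusted p = 0.257, 0.0905, 0.0555 and 0.0969, in that order). The cause was not tested. MiR-30b-5p turned to -0.043 with upper-quartile scaling and -0.0036 without a filter, and ranged from -0.042 to 0.086 over left-out libraries. MiR-30e-3p turned to 0.032 with library totals and ranged from -0.11 to 0.0054. The arm ratios of miR-30a and miR-30e ranged from -0.12 to 0.034 and from -0.13 to 0.021. Of the 5 miR-30 hairpins 1 was called for its arm ratio, 2 with a pseudocount of 5, and 1 to 2 over left-out libraries. In the shares, swapping only within replicate numbers cannot give a p below 0.125, and gave that value for all 5 (adjusted p = 0.125), at differences of 0.88 (miR-30a-5p), 1.24 (miR-30b-5p), 3.30 (miR-30c-5p), -8.61 (miR-30d-5p) and 3.19 (miR-30e-5p) percentage points. Left-out libraries gave 0.84 to 0.91, 1.06 to 1.45, 2.93 to 3.57, -9.16 to -7.82 and 2.78 to 3.39 points in that order. Deviations of same-numbered libraries correlated at 0.028, 0.061, -0.058 and 0.034, so they gave no sign of pairing. Shared cultures or days are not excluded by this, and the labels do not give them. Depth limits the rare passengers, most of all miR-30c-2-3p.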

Other observations

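Of 12 miRNAs averaging over 10000 CPM in control cells, 5 were called lower and 1 higher in ETBF cells, beside 14.6% lower and 19.8% higher of all 480 tested, and miR-30d-5p had the lowest log2 fold change of the 12. Over all 480 tested miRNAs, 23 called ones had a log2 fold change at or below its -0.62, itself included.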
